A study of Mus musculus with 24 samples.

Results

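The 9 genes described here are markers of the primed pluripotent epiblast and of the germ layers that follow it: Fgf5, Otx2, Pou3f1, Zic2, Lef1, T, Mixl1, Nes and Pax6. They were taken by gene symbol from the 23917 symbols listed in a table of RNA values and a table of ribosome footprint values, and all 9 were found in both. The cells were mouse E14 embryonic stem cells, an established line, in 3 kinds of transfected culture: cells given oligonucleotides with locked nucleic acids that are antisense to tRF-GG, a fragment of glycine tRNA (inhibitor), cells given an endoribonuclease-prepared siRNA pool against GFP as control (GFP), and mock-transfected cells (mock). Each kind gave 4 RNA libraries and 4 footprint libraries, 24 in all, and libraries are named by group and by the number in their labels. Footprints were RNAs of 26 to 32 nucleotides recovered from 80S ribosomes after RNase digestion. The labels do not say whether same-numbered libraries came from the same culture, nor that the 4 libraries of a group came from separate cultures, so p-values measure the spread between these libraries, which may be technical.

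Embryonic stem cells in culture resemble the naive epiblast of the blastocyst. After implantation the epiblast passes into a formative and then a primed state, in which Fgf5, Otx2, Pou3f1 and Zic2 are switched on. Gastrulation then forms a primitive streak, marked by T and Mixl1 and driven by Wnt signalling through the TCF and LEF transcription factors, while the neural lineage comes to express Nes and Pax6. In stem cell cultures these genes are commonly read as signs of exit from the naive state.

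The libraries carried the RNA of pluripotent stem cells. All 18 genes of a naive and core pluripotency list had a mean of at least 1 scaled FPKM (fragments per kilobase of transcript, relative to the total of the library, then brought to a common scale by median-of-ratios factors) in RNA, led by Pou5f1 (738), Tdgf1 (342) and Zfp42 (293). The summed level of these 18 genes ran from 1942 to 2803 scaled FPKM in inhibitor, 2408 to 2903 in GFP and 2128 to 2606 in mock RNA libraries. The 45S ribosomal precursor took 62.7% of the summed FPKM in inhibitor RNA 1, 18.1% in GFP RNA 1 and 39.1% in mock RNA 1, and 1.68% to 5.25% in the other RNA libraries. Depth relative to the deepest library of its table was lowest in mock RNA 3 (7.17%) among RNA libraries and in inhibitor footprint 3 (20.6%) among footprint libraries. Absolute depth is unknown.

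The RNA means of the 9 markers lay above those of 36.9% (Mixl1) to 65.8% (Zic2) of all listed genes, and all 9 were below the median of the pluripotency list. Their median RNA level, taken over the genes' means across 12 libraries, was 0.762 scaled FPKM, against 69.2 for the pluripotency list and 4.47 for 24 other genes of the primed and formative epiblast. In RNA, 4 of the 9 had a mean of at least 1 scaled FPKM, a share close to the 47.4% of all listed genes that did, and in footprints 3 of the 9 did, beside 38.2% of all listed genes. Zic2 stood highest (3.90 ± 1.83 scaled FPKM, SD, n = 12 libraries), next to Otx2 (3.88 ± 1.05), and their levels did not differ beyond this spread. Pou3f1 (2.29 ± 0.93) came next and then Lef1 (1.01, at 0 in 2 libraries), and the steps from Otx2 to Pou3f1 and from Pou3f1 to Lef1 were larger than the SD of the higher gene. Nes (0.762 ± 0.305), Pax6 (0.506 ± 0.275) and Fgf5 (0.401 ± 0.313) followed, with steps smaller than the SD of the higher gene. T and Mixl1, with means of 0.246 and 0.124 scaled FPKM, were listed at 0 in 6 and 5 of 12 RNA libraries. Otx2 lay above 65.7% of all listed genes in RNA and above 74.3% in footprints, where it led with a mean of 2.85 scaled FPKM and Zic2 followed with 2.37.

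**Figure D1:**
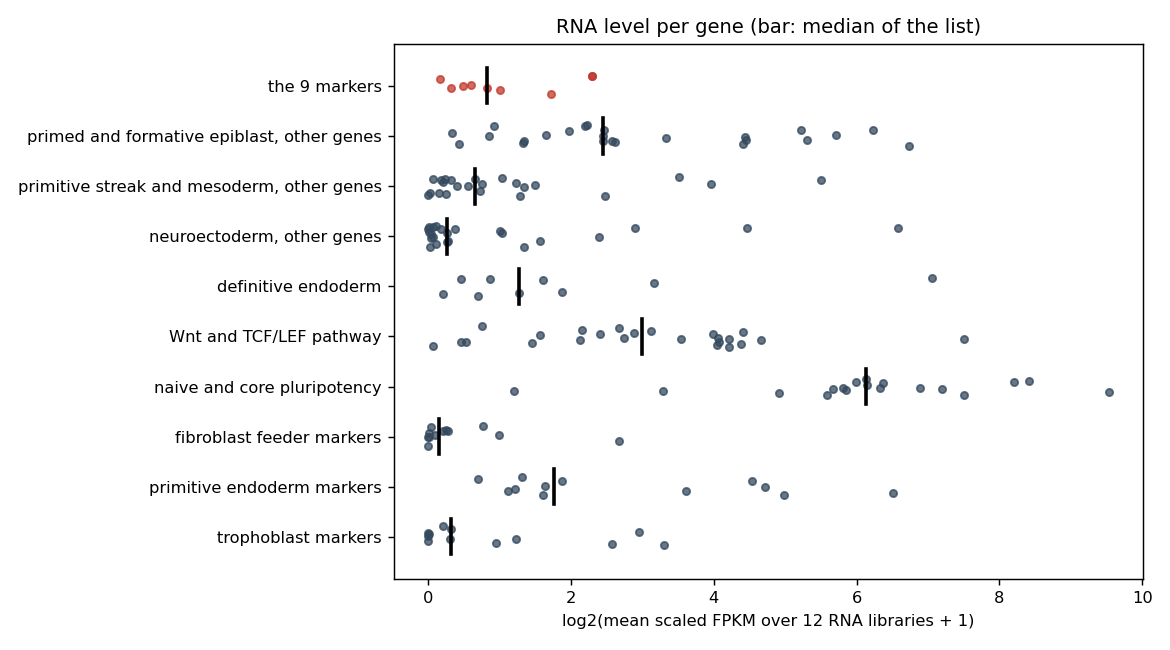
RNA level of each gene as log2 of its mean scaled FPKM over 12 RNA libraries plus 1, for the 9 markers (red) and for lists of related genes and of other cell types (dark), with a bar at each list's median. The 9 markers lie between 0.124 and 3.90 scaled FPKM, and 16 of the 18 pluripotency genes lie at 10 scaled FPKM or more.

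RefSeq promoter windows were matched for 6 of the 9 markers (Fgf5, Otx2, Lef1, T, Nes and Pax6), and 2 are shown because they stand for genes at the bottom of the range whose promoters differ in CpG content. Each is the stretch of 250 bases before a start site, 5′ to 3′, on the plus strand of build GRCm38.p6, with CpG dinucleotides in capitals: Fgf5 at chr5:98253934-98254183 and T at chr17:8434173-8434422.
Fgf5: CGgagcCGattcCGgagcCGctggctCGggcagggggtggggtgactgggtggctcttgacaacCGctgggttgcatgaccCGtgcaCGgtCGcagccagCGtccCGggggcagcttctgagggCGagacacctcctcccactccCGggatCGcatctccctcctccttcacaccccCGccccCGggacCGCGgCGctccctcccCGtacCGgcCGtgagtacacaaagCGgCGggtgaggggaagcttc
T: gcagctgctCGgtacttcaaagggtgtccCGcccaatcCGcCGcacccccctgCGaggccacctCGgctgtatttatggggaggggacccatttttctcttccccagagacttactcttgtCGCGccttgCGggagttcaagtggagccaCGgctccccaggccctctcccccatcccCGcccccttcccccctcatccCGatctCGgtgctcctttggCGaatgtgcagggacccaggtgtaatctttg
The Fgf5 stretch held 24 CpG and 70.8% GC, and the T stretch 14 CpG and 62.8% GC, where the median of 32851 windows was 6 CpG and 52.4% GC. Nes had 15 CpG, and so had both Pax6 windows, while the 4 Otx2 windows had from 6 to 14 and the 4 Lef1 windows from 5 to 14. A search for the TCF/LEF core CTTTGAA or CTTTGAT on either strand found 1 match, in T, among the windows of these genes, and 7.48% of all windows held one. A match is a run of letters, and nothing was measured here about binding to it.

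Among the epiblast markers, Zic2, a zinc finger transcription factor of the early epiblast and the neural plate, was the one with an unadjusted p under 0.05, with lower values in inhibitor libraries than in either control. In RNA it stood at 2.24, 3.34, 1.51 and 1.67 scaled FPKM in inhibitor libraries 1 to 4, at 7.64, 6.29, 2.98 and 3.98 in GFP libraries and at 4.08, 5.44, 4.05 and 3.52 in mock libraries. Every inhibitor RNA library lay below every mock library, and inhibitor RNA 2 lay above GFP RNA 3, so that the inhibitor and GFP groups overlapped. In footprints Zic2 stood at 1.65, 1.89, 1.20 and 0.585 scaled FPKM in inhibitor libraries 1 to 4, at 3.15, 4.51, 2.19 and 2.40 in GFP libraries and at 3.33, 2.57, 2.94 and 2.04 in mock libraries. All 4 inhibitor footprint libraries were below all 8 control footprint libraries. Groups that do not overlap, with the inhibitor lower, were found for 0.872% of 10669 genes tested against GFP and 1.07% against mock in footprints, and for 1.22% of 12560 genes tested against mock in RNA. The share of genes below both control groups at once in footprints was not counted, and it can be no larger than 0.872%.

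Zic2 averaged 2.19 ± 0.83 scaled FPKM in inhibitor RNA, 5.22 ± 2.12 in GFP RNA and 4.27 ± 0.821 in mock RNA (SD, n = 4 each). The difference on the log2(scaled FPKM + 1) scale, which understates the change of low genes, was -0.93 against GFP (SE 0.27, 95% interval -1.51 to -0.35) and -0.75 against mock (SE 0.27, -1.32 to -0.17). By limma with Benjamini-Hochberg adjustment over 12560 genes it did not pass the threshold of 0.05 in either comparison (adjusted p = 0.857 and 1, unadjusted p = 0.00377 and 0.0148). With the library number as a replicate block the RNA intervals were -1.35 to -0.51 against GFP and -1.17 to -0.32 against mock. The blocked limma fits missed the threshold too (adjusted p = 0.112 and 0.216). In footprints the means were 1.33 ± 0.575, 3.06 ± 1.05 and 2.72 ± 0.549 scaled FPKM in inhibitor, GFP and mock libraries (SD, n = 4 each), with differences of -0.80 against GFP (SE 0.22, -1.28 to -0.32) and -0.70 against mock (SE 0.22, -1.18 to -0.22). These also missed the threshold by limma over 10669 genes (adjusted p = 0.739 and 0.885, unadjusted p = 0.00312 and 0.00780). The numbers pair the libraries of the inhibitor and GFP groups in both tables. Over the numbered pairs the difference ran from -1.41 to -0.66 in RNA and from -1.10 to -0.53 in footprints on the log2 scale. In footprints a common sign follows from groups that do not overlap, whatever the pairing. The share of all genes with the same sign in every pair was not counted. Both inhibitor comparisons share the inhibitor libraries, so their common direction is not independent. Between the 2 controls Zic2 differed by 0.18 in RNA (SE 0.27, GFP minus mock) and by 0.11 in footprints (SE 0.22), with intervals of -0.39 to 0.76 and -0.37 to 0.58.

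The highest sums of trophoblast and of fibroblast feeder markers were in inhibitor libraries. Few genes carried these sums. Of the 12 feeder markers 1 had an RNA mean of at least 1 scaled FPKM, Thy1 (5.38). Of the 12 trophoblast markers 4 did, led by Krt8 (8.82), Plet1 (6.73) and Tfap2c (4.97). Whether the sums reflect more cells of either kind was not tested. The summed level of 12 trophoblast markers ran from 17.2 to 52.7 scaled FPKM in inhibitor, 9.42 to 38.9 in GFP and 11.7 to 37.1 in mock RNA libraries, with Tpbpa, Prl3d1 and Plac1 listed at 0 in all 12. That of 12 fibroblast feeder markers ran from 6.26 to 15.3, 4.28 to 8.51 and 4.88 to 8.74 in inhibitor, GFP and mock RNA, with Lum and Dcn listed at 0 in all 12. In footprints the trophoblast sum ran from 15.9 to 54.5, 8.18 to 29.0 and 6.78 to 27.1, and the feeder sum from 4.86 to 8.97, 2.67 to 5.95 and 2.91 to 5.95. In both lists the ranges of the 3 groups overlapped, and their part in the Zic2 result was not tested. Of the trophoblast markers 5 could be tested in RNA (0 past the threshold by limma, 1 at an unadjusted p under 0.05), with a median difference of 0.37 against GFP, and of the feeder markers 3 (0 and 1), with a median of 0.17. Without the 3 RNA libraries numbered 1, the Zic2 difference in RNA was -0.77 against GFP and -0.78 against mock. Its size depended on the pseudocount: against GFP it was -1.19 in both tables with a pseudocount of 0.1, and -0.49 in RNA and -0.34 in footprints with one of 5. In a bulk culture fewer cells that express a gene and less of its RNA per cell cannot be told apart.

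Zic2 lies on chromosome 14 (122475384 to 122480328, GRCm38), 9725 bases from Zic5, another gene of the same zinc finger family (122459160 to 122465658), with 1 annotated gene between them. Zic5 was named after its values had been seen. Zic5 footprints averaged 1.44 ± 0.802, 2.11 ± 0.277 and 1.98 ± 0.406 scaled FPKM in inhibitor, GFP and mock libraries (SD, n = 4 each), with inhibitor values of 2.48, 0.576, 1.56 and 1.15 in libraries 1 to 4. Inhibitor footprint 1 held the highest Zic5 value of the 12, so the groups overlapped. The Zic5 differences of the inhibitor were -0.40 against GFP and -0.34 against mock in footprints (SE 0.21 each) and -0.19 and -0.50 in RNA (SE 0.33 each), all with a limma adjusted p of 1. Reads that match several transcripts were divided among them by an estimate, and whether this touched Zic2 and Zic5 was not checked.

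**Figure D2:**
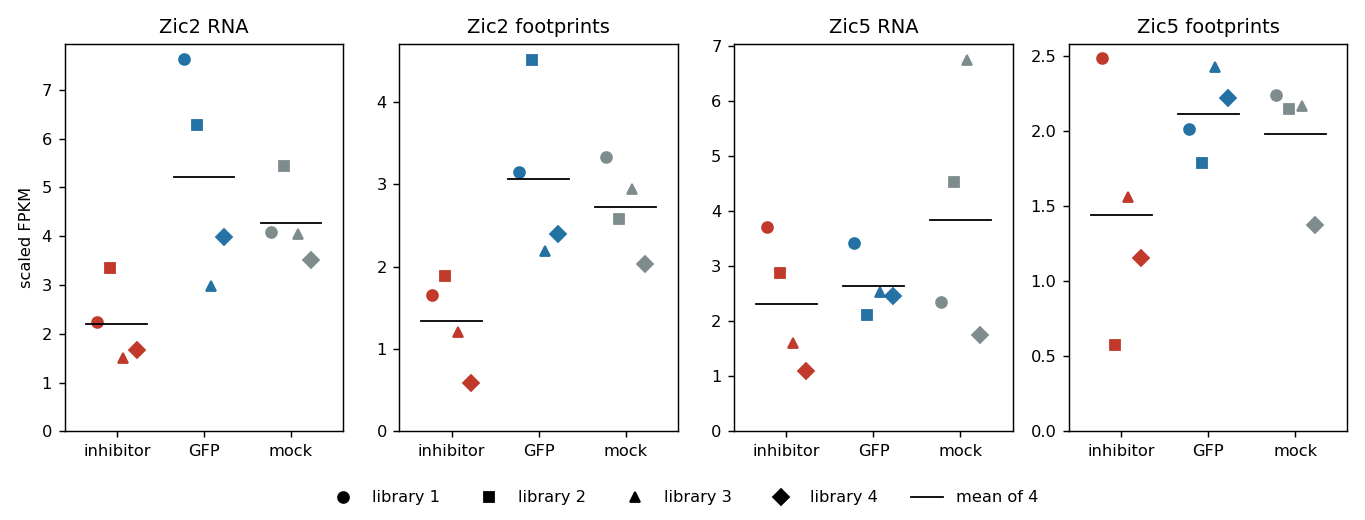
Scaled FPKM of Zic2 and of the nearby Zic5 in RNA and in footprints, by group, with 1 symbol per numbered library and a line at the mean of 4. All 4 inhibitor footprint libraries lie below all GFP and mock libraries for Zic2, while for Zic5 inhibitor footprint 1 (2.48 scaled FPKM) is the highest of 12.

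Otx2, a homeobox factor that drives entry into the primed state and later patterns the anterior head (chromosome 14, 48656781 to 48667644, GRCm38 as for all genes here), was close to Zic2 in level and did not share its separation. In RNA it stood at 6.37, 2.58, 3.86 and 4.04 scaled FPKM in inhibitor libraries 1 to 4, at 3.92, 4.15, 2.59 and 3.41 in GFP libraries and at 5.17, 3.57, 3.12 and 3.77 in mock libraries. The groups overlapped, and the highest and the lowest values were both in inhibitor libraries. Footprint values were 1.70, 4.77, 2.57 and 4.81 scaled FPKM in inhibitor libraries, 2.17, 4.17, 1.40 and 2.48 in GFP libraries and 3.62, 2.01, 1.89 and 2.59 in mock libraries. The inhibitor differed from GFP by 0.17 in RNA (SE 0.24, 95% interval -0.34 to 0.69) and by 0.31 in footprints (SE 0.29, -0.31 to 0.93), with a limma adjusted p of 1 in each. Against mock the differences were 0.06 (-0.46 to 0.57) in RNA and 0.29 (-0.33 to 0.91) in footprints.

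Pou3f1, a POU-domain factor also known as Oct6 and found in the primed epiblast and in neural progenitors (chromosome 4, 124657646 to 124660655), was spread widely within each group. RNA values were 1.83, 1.44, 2.15 and 4.17 scaled FPKM in inhibitor libraries 1 to 4, 3.38, 1.16, 2.09 and 2.62 in GFP libraries and 2.41, 2.42, 0.890 and 2.94 in mock libraries. Footprints stood at 0.379, 1.74, 1.41 and 0.910 scaled FPKM in inhibitor libraries, 0.361, 1.17, 1.08 and 0.997 in GFP libraries and 0.984, 0.222, 0.819 and 2.20 in mock libraries. The low footprint values were inhibitor 1, GFP 1 and mock 2, 1 in each group. The inhibitor minus GFP difference was 0.02 in RNA (SE 0.31, 95% interval -0.64 to 0.68) and 0.13 in footprints (SE 0.29, -0.49 to 0.74), each with a limma adjusted p of 1.

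Fgf5, a secreted growth factor that is among the most used marks of the post-implantation epiblast (chromosome 5, 98254184 to 98277033), did not reach the mean of 0.5 scaled FPKM set for testing in either table. It stood at 0.944, 0.129, 0.375 and 0.219 scaled FPKM in inhibitor RNA libraries 1 to 4, at 0.479, 0.217, 0.342 and 0.244 in GFP libraries and at 0.312, 0.164, 1.12 and 0.263 in mock libraries. The highest value was in mock RNA 3, the shallowest library, and the next in inhibitor RNA 1, which had the largest share of 45S precursor. In footprints no library exceeded 0.354 scaled FPKM, in inhibitor footprint 2, and inhibitor footprint 3 and GFP footprints 1 and 4 were at 0.

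**Figure D3:**
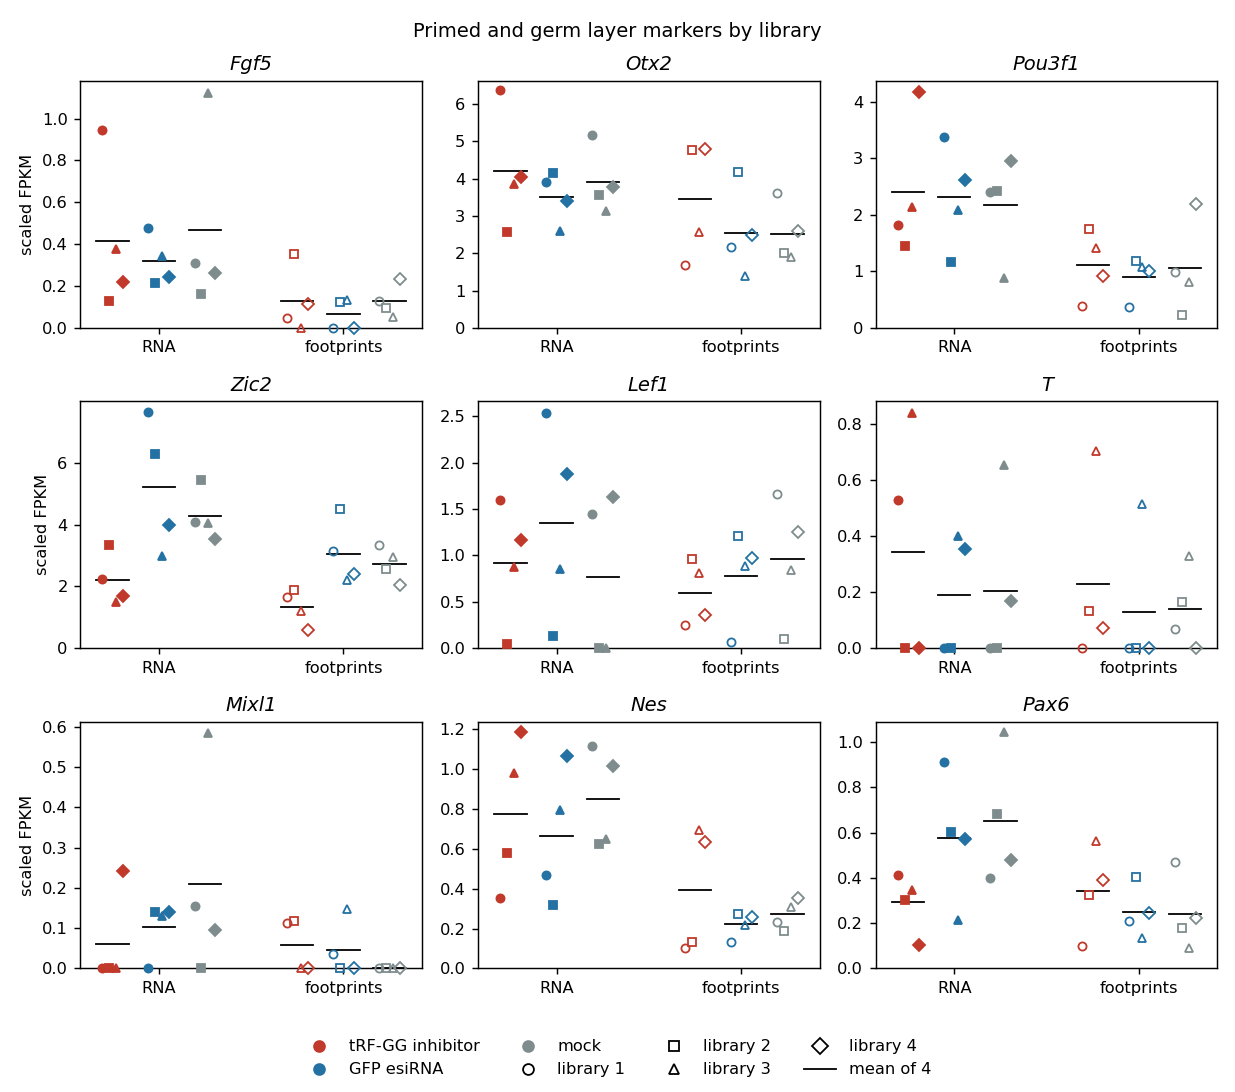
Scaled FPKM of the 9 markers in every library, with RNA (filled) on the left and footprints (open) on the right of each panel, groups by colour, library numbers by symbol and a line at the mean of 4. Each panel has its own axis from 0, and Zic2 is the panel in which the 4 inhibitor footprint values lie apart from the 8 control values.

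Lef1 is a DNA-binding partner of beta-catenin that carries Wnt signals to their target genes, and its gene lies on chromosome 3 (131110297 to 131224357). In RNA it stood at 1.59, 0.0430, 0.875 and 1.16 scaled FPKM in inhibitor libraries 1 to 4, at 2.53, 0.132, 0.850 and 1.88 in GFP libraries and at 1.45, 0, 0 and 1.63 in mock libraries. All 3 RNA libraries numbered 2 were at or below 0.132, and all libraries numbered 1 and 4 were at 1.16 or more, whatever the transfection. Mock RNA 3, also at 0, was the shallowest library. In footprints Lef1 was at 0.245, 0.960, 0.812 and 0.357 scaled FPKM in inhibitor libraries, at 0.0695, 1.20, 0.882 and 0.977 in GFP libraries and at 1.66, 0.10, 0.839 and 1.25 in mock libraries. The lowest footprint values were thus inhibitor 1, GFP 1 and mock 2, as for Pou3f1. With the library number left out of the model, Lef1 differed by -0.24 in inhibitor minus GFP RNA (SE 0.43, 95% interval -1.16 to 0.68) and by -0.14 in footprints (SE 0.29, -0.76 to 0.49), and by 0.19 and -0.25 against mock, each with a limma adjusted p of 1. With the number as a replicate block in RNA, the interval was -0.70 to 0.22 for inhibitor minus GFP (SE 0.21, limma adjusted p = 0.934) and -0.27 to 0.66 for inhibitor minus mock (adjusted p = 0.914). GFP minus mock was 0.43 in RNA, with a blocked interval of -0.03 to 0.90 and a limma adjusted p of 1 (unadjusted p = 0.0656). Its numbered pairs ran from 0.13 to 0.89, and the 0.89 rests on the 0 of mock RNA 3. The share of all genes with the same sign in every pair was not counted. The 3 transcripts that the tables list for Lef1 share reads by an estimate, and whether this set its low values was not tested.

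**Figure D4:**
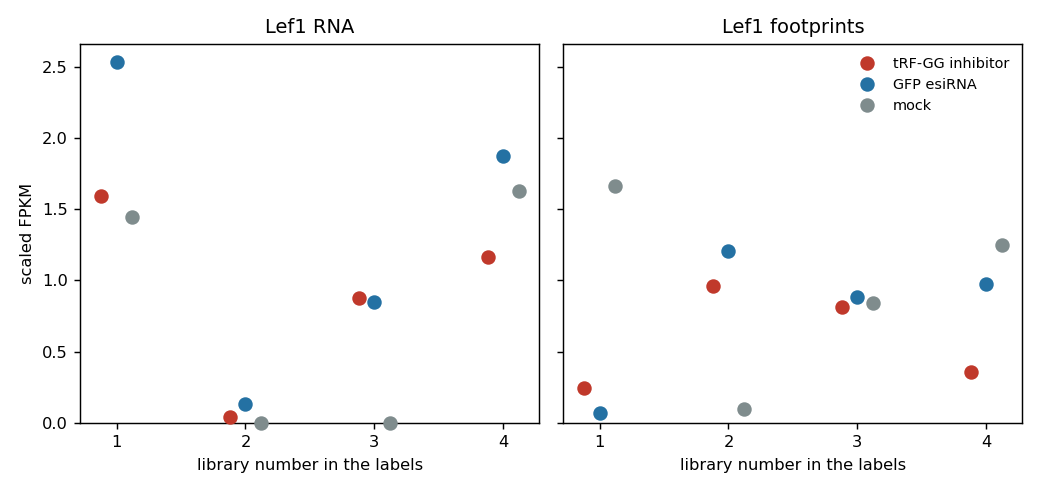
Lef1 in scaled FPKM against the library number in the labels, for RNA and footprints, with 1 point per library coloured by group. In RNA the 3 libraries numbered 2 lie at 0.132 or below, and in footprints inhibitor 1, GFP 1 and mock 2 lie lowest.

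Other genes of the Wnt pathway gave 0 past the threshold by limma, and 0 at an unadjusted p under 0.05 in RNA against GFP. Of 24 listed, 21 were tested in RNA, and 14 lay above and 7 below 0 for the inhibitor against GFP, with a median of 0.06 beside -0.01 over all genes. Ctnnb1, which encodes beta-catenin itself, averaged 180 scaled FPKM over the RNA libraries, followed by the receptor Fzd7 (24.4) and the kinase Gsk3a (20.2). In footprints 8 of 19 tested lay above 0 against GFP, with a median of -0.01 beside 0.01 over all genes. Against mock 1 of 19 had an unadjusted limma p under 0.05 in footprints, beside 3.59% of all genes. For translational efficiency (footprints per unit of RNA) against mock 1 of 19 did, beside 0.915%. There 4 lay above and 15 below 0, with a median of -0.13 beside 0.01 over all genes.

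T, or Brachyury, the T-box factor that marks the primitive streak and the mesoderm leaving it (chromosome 17, 8434423 to 8442496), was near the limit of detection. In RNA it stood at 0.531, 0, 0.841 and 0 scaled FPKM in inhibitor libraries 1 to 4, at 0, 0, 0.402 and 0.356 in GFP libraries and at 0, 0, 0.656 and 0.168 in mock libraries. Each group thus had 2 libraries at 0 and 2 above it. RNA libraries numbered 2 were all at 0, and those numbered 3 were the highest of their groups, whatever the transfection. Values of T, multiplied by relative depth, lay near steps of a common unit that may be 1 read. In RNA 5 of the 6 values above 0 were within 0.25 of a whole number of units. That tolerance is wide, and the unit was set from the lowest values, which lie near 1 unit by construction. The count is therefore no test of whether a unit is 1 read. The highest, inhibitor RNA 3, was 8 units, GFP RNA 4 and 3 were 5 and 3, and inhibitor RNA 1 and mock RNA 3 were 1 unit each. In footprints T was above 0 in 7 libraries and reached 6 units in GFP 3 and in mock 3, while inhibitor footprint 3 had the highest scaled FPKM (0.707) from 2 units. T was below the level set for testing, and differences between groups were not tested.

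Mixl1, a homeobox factor of the primitive streak and of mesoderm and endoderm precursors (chromosome 1, 180693043 to 180697034), was lower still. It was listed at 0 in inhibitor RNA 1, 2 and 3, in GFP RNA 1 and in mock RNA 2, and stood at 0.241 scaled FPKM in inhibitor RNA 4, at 0.139, 0.129 and 0.140 in GFP RNA 2 to 4 and at 0.156, 0.583 and 0.0957 in mock RNA 1, 3 and 4. All 7 values above 0 lay within 0.25 of 1, 2 or 3 units, 12 units in all, and the 0.583 of mock RNA 3 was 1 unit. The unit was again set from the lowest values, with the same wide tolerance as for T. In footprints 4 libraries were above 0, inhibitor 1 and 2 and GFP 1 and 3, with at most 2 units each, and all 4 mock libraries were at 0.

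Of 23 other genes of the primitive streak and mesoderm, 9 averaged at least 1 scaled FPKM in RNA. Those highest were Nodal (44.2), a ligand that also acts in stem cells, and its antagonists Lefty2 (14.6) and Lefty1 (10.4). In RNA 12 were tested, with 7 above and 5 below 0 for the inhibitor against GFP and a median of 0.06. By limma 0 passed the threshold and 0 had an unadjusted p under 0.05.

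Nes encodes nestin, an intermediate filament of neural progenitors, and lies on chromosome 3 (87971093 to 87980451). In RNA it was at 0.354, 0.581, 0.980 and 1.18 scaled FPKM in inhibitor libraries 1 to 4, at 0.468, 0.317, 0.797 and 1.07 in GFP libraries and at 1.11, 0.625, 0.649 and 1.01 in mock libraries. The groups overlapped throughout, with libraries numbered 4 at 1.01 or more in all 3. The inhibitor minus GFP difference was 0.09 (SE 0.23, 95% interval -0.41 to 0.59) and the inhibitor minus mock difference -0.08 (-0.57 to 0.42), each with a limma adjusted p of 1. In footprints Nes was too low to be tested. It stood at 0.105, 0.133, 0.694 and 0.633 scaled FPKM in inhibitor libraries, against 0.132 to 0.273 in GFP and 0.186 to 0.356 in mock libraries, so that inhibitor 3 and 4 were above all 8 control libraries and inhibitor 1 was the lowest of 12.

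Pax6, a paired-box and homeobox factor of the eye and the neural tube (chromosome 2, 105668896 to 105698410), was just above the level set for testing in RNA. It stood at 0.413, 0.301, 0.347 and 0.106 scaled FPKM in inhibitor libraries 1 to 4, at 0.913, 0.603, 0.213 and 0.572 in GFP libraries and at 0.401, 0.684, 1.04 and 0.479 in mock libraries. GFP RNA 3 lay within the inhibitor range, as did mock RNA 1. The inhibitor differed by -0.27 from GFP (SE 0.22, 95% interval -0.74 to 0.20) and by -0.35 from mock (SE 0.22, -0.82 to 0.13), each with a limma adjusted p of 1. In footprints, where Pax6 was not tested, its mean was 0.344 ± 0.192 scaled FPKM in inhibitor, 0.249 ± 0.114 in GFP and 0.239 ± 0.162 in mock libraries (SD, n = 4 each), and the groups overlapped.

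Among 23 other neuroectoderm genes, 8 averaged at least 1 scaled FPKM in RNA. Vim, an intermediate filament found in many cell types, led with 94.4, before Tubb3 (21.0) and Ncam1 (6.43). The same number, 8, could be tested in RNA, and 2 lay above and 6 below 0 for the inhibitor against GFP, with a median of -0.23. By limma 0 passed the threshold and 0 had an unadjusted p under 0.05. Against mock the median was -0.08.

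Across the comparisons no marker passed the threshold by limma. Of the 9, 6 could be tested in RNA and 4 in footprints, and the count past an adjusted p of 0.05 was 0 in each comparison. Over all genes the share called was 0.0159% for inhibitor against GFP and 0.0239% against mock in RNA, 0.00937% against GFP in footprints, and 0% against mock in footprints. Between GFP and mock it was 0% in RNA and 0.00937% in footprints. With the library number as a replicate block, which the numbers allow in RNA and for inhibitor against GFP in footprints, 0 markers passed as well, beside 0.255% of all genes for inhibitor against GFP and 0.271% against mock in RNA, 0% for GFP against mock in RNA and 0.075% for inhibitor against GFP in footprints. The blocked footprint fit also held the mock libraries under their own numbers, which do not all pair with those of the other groups. At an unadjusted p under 0.05, 1 of 6 tested markers in RNA and 1 of 4 in footprints were found for inhibitor against GFP, Zic2 in both, where 3.11% and 3.31% of all genes were. The same held against mock, beside 3.66% and 3.59% of all genes. Between GFP and mock 0 markers had an unadjusted p under 0.05 in either table, beside 0.525% and 0.459% of all genes. In RNA, 3 of the 6 tested markers were above 0 and 3 below for inhibitor against GFP, with a median of -0.11 where that of all genes was -0.01.

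**Figure D5:**
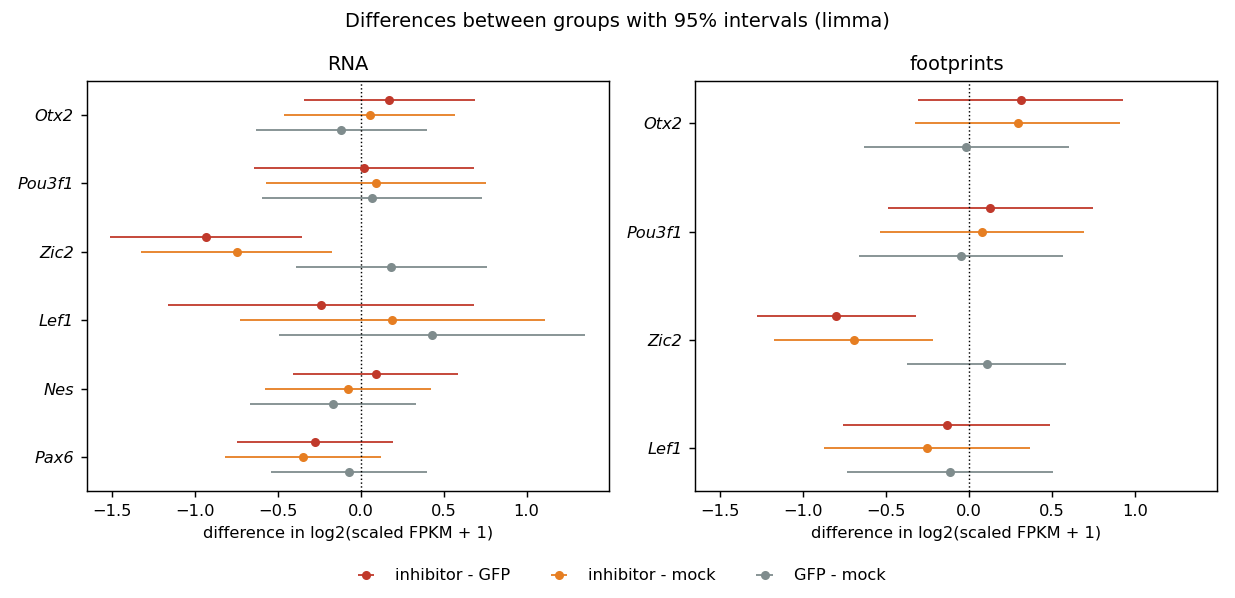
Differences between groups in log2(scaled FPKM + 1), with 95% intervals from limma, for the 6 markers tested in RNA and the 4 tested in footprints. The intervals of Zic2 for inhibitor minus GFP and inhibitor minus mock lie below 0 in both panels before any adjustment for the number of genes, and those of the other markers include 0.

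Translational efficiency, footprints per unit of RNA, was tested as the interaction of assay and group for the 4 markers measured in both tables. The Zic2 difference was 0.13 for inhibitor minus GFP (SE 0.35, 95% interval -0.59 to 0.85) and 0.05 for inhibitor minus mock (-0.67 to 0.77), so that its lower footprint values stood beside lower RNA values of similar size. Otx2 was at 0.14 (-0.64 to 0.91), Pou3f1 at 0.10 (-0.79 to 1.0) and Lef1 at 0.10 (-1.03 to 1.24) for inhibitor minus GFP. For inhibitor minus mock Otx2 was at 0.24 (-0.54 to 1.01), Pou3f1 at -0.02 (-0.91 to 0.88) and Lef1 at -0.45 (-1.58 to 0.69), and for GFP minus mock Lef1 was at -0.55 (-1.68 to 0.59). Each had a limma adjusted p of 1 over 10497 genes (0 past the threshold, 0% of all genes, with 0 of these 4 markers and 0.714% of all genes at an unadjusted p under 0.05, and with 0.915% for inhibitor against mock and 0.372% for GFP against mock). The intervals are wide enough to hold a change of either sign. A ratio of mean footprint to mean RNA value was also taken, with the pseudocount of 1 added to both means. The pseudocount draws the log2 ratio of low genes towards 0. The median gene lay at -0.82, -0.86 and -0.82 in inhibitor, GFP and mock cells, so low genes come out above it partly by construction. Relative to the median gene of its group, this ratio for Zic2 was 0.36, 0.24 and 0.31 higher on the log2 scale in inhibitor, GFP and mock cells. That was above 70.5%, 63.9% and 68.1% of genes, ranks that do not show better translation than in most genes. Otx2 was 0.59, 0.51 and 0.34 above the median gene, and Pou3f1 0.13, 0.06 and 0.19. Lef1, the most uneven of the 4, was 0.55, 0.46 and 0.97 above it in inhibitor, GFP and mock cells.

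Of 24 other genes of the primed and formative epiblast, 20 had a mean of at least 1 scaled FPKM in RNA, and their levels ran from below those of Otx2 and Zic2 to far above them. The chromatin protein gene Utf1 (106), the ETS factor gene Etv5 (74.0) and the MAP kinase phosphatase gene Dusp6 (51.4) stood highest. In RNA 22 were tested, and 12 lay above and 10 below 0 for the inhibitor against GFP, with a median of 0.01. Against mock 15 lay above and 7 below, with a median of 0.10. The control comparison leaned the same way, with 19 above and 3 below 0 for GFP against mock and a median of 0.08. In footprints 10 of 19 lay above 0 for the inhibitor against GFP, with a median of 0.02. By limma 0 of them passed the threshold in any comparison of RNA, footprints or translational efficiency, and 1 had an unadjusted p under 0.05 in RNA against GFP. Of the 9 definitive endoderm genes 7 were tested in RNA, led by Trh (132), Cldn6 (7.92) and Gata6 (2.67), with a median of 0.03 against GFP (0 past the threshold by limma, 1 at an unadjusted p under 0.05). The median RNA level of these 9 was 1.41 scaled FPKM, far below that of Trh. The 12 primitive endoderm markers, which share Gata6 and other genes with that list, were led by Sparc (90.5), Lama1 (30.6) and Col4a1 (25.3). In RNA 10 of these 12 lay above 0 for the inhibitor against GFP, with a median of 0.05, and 6 against mock, with a median of 0.01 (0 past the threshold by limma and 0 at an unadjusted p under 0.05 in each). For GFP against mock 2 lay above and 10 below 0, with a median of -0.12. In RNA their summed level ran from 93.0 to 272 scaled FPKM in inhibitor, 78.3 to 270 in GFP and 130 to 275 in mock libraries. Of the 18 pluripotency genes 3 lay above and 15 below 0 against GFP in RNA, with a median of -0.20 (0 past the threshold by limma, 2 at an unadjusted p under 0.05), and 6 above and 12 below against mock, with a median of -0.17.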

How the data were processed

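The authors deposited FPKM per gene symbol, 1 column for each of 24 libraries. RSEM, Bowtie2, TopHat and CASAVA 1.8.2 and the build mm10 are named in the submitters' processing notes, with no version for the first 3. Ribosomal RNA counts towards a library's total, so the FPKM of other genes are lower where it is abundant. Scaling was by median-of-ratios factors from genes that reached 5 FPKM in all libraries of a table (1717 in RNA, 2960 in footprints). A pseudocount of 1 was added before taking log2. Genes with a mean of at least 0.5 scaled FPKM were tested (12560 in RNA, 10669 in footprints, 10497 for translational efficiency) with limma 3.58.1 in R 4.3.3, with trended, robust spread from all 3 groups, two-sided, with Benjamini-Hochberg adjustment. Relative depth came from the commonest ratio of the lowest values of library pairs (63 of 63 RNA and 65 of 66 footprint pairs within 0.1 log2 of the fit). No library pair held identical values (0). The fits and the depth estimate were tested on simulated data. For the fits, changes were placed only in genes with a mean of at least 5 scaled FPKM in both tables. No marker reached that level, so the simulation gives no measure of recovery for the markers. Python 3.11.15, numpy 2.4.6, pandas 2.3.3 and matplotlib 3.10.9 made tables and plots.

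The markers and lists were chosen with earlier results of these data known. Named genes are the 9 markers and, from each list, genes past the threshold and the 3 with the highest RNA mean. Zic5 and the trophoblast and feeder markers listed at 0 in all RNA libraries were named outside this rule, after their values were seen. The fibroblast feeder list was led by Thy1 (5.38), Fbn1 (0.989) and Tagln (0.70) and the trophoblast list by Krt8 (8.82), Plet1 (6.73) and Tfap2c (4.97 scaled FPKM). Genes with a pattern most like a marker were to be named for markers with a mean of at least 5 scaled FPKM in RNA, and 0 had one.

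Numbers pair the libraries in RNA, where deviations from group means of same-numbered libraries correlated by 0.315 to 0.782 in every pair of groups, and in footprints of inhibitor and GFP (0.448 to 0.807).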

Additional observations from a re-analysis of the deposited data

Results flagged for a closer look

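In 54 combinations of a marker, an assay and a group of 4 libraries, 4 values lay far from the other 3. Chance flags about 1 in 20 groups of continuous values, a rate that does not apply to values near 0: a group with 1 library above 0 and 3 at 0 is flagged by construction, as for T and for Mixl1 in inhibitor RNA here. Fgf5 in mock RNA 3 was at 1.12 scaled FPKM, and the other 3 mock libraries were between 0.164 and 0.312. T in GFP footprint 3 was at 0.514 and the others at 0, and the footprint library numbered 3 held the highest T value in the inhibitor (0.707) and mock (0.329) groups too. Mixl1 in inhibitor RNA 4 was at 0.241 and the others at 0. Mixl1 in GFP RNA 1 was at 0 and the others between 0.129 and 0.140.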

How the results depend on the processing

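The count of markers past the threshold was 0 in all 9 comparisons under every alternative run: pseudocounts of 0.1 and 5, no filter and a filter at 5 FPKM, FPKM as deposited, quantile normalization, array weights, the replicate block, the 2 compared groups alone, and leaving out the libraries numbered 1, or each library in turn (0 to 0 throughout), and, chosen after seeing the data, mock RNA 3. The Zic2 difference stayed below 0 in all 19 such fits of RNA against GFP (-1.22 to -0.49, adjusted p from 0.112 to 1) and in all 18 of footprints against GFP (-1.19 to -0.34, adjusted p from 0.0709 to 1). With the replicate block its limma adjusted p was 0.112 in RNA and 0.119 in footprints against GFP, and 0.216 in RNA against mock, and the block changed no call of a marker. Over all genes it called 32 and not 2 in RNA against GFP, 34 and not 3 in RNA against mock, and 8 and not 1 in footprints against GFP. In footprints, mock 1 and 2 correlated better with another number of the inhibitor and GFP libraries than with their own. Correlations were -0.175 to 0.136 with their own number and 0.561 to 0.822 with another, so the mock footprint numbers are not taken as pairs. The blocked footprint fits still entered the mock libraries under these numbers, also for inhibitor against GFP, which limits their adjusted p-values and counts. For inhibitor against mock in footprints the block called 2 and not 0 genes. Differences of single markers were also taken, without a test, within libraries numbered 1 and 2 and within those numbered 3 and 4. Of the differences under these alternatives and within these numbers together, 936 moved by no more than the larger group SD and 10 by more. No call changed in any fit. At a filter of 5 FPKM no marker could be tested. Depth limits T, Mixl1 and Fgf5, and also tested markers in single libraries. FPKM times relative depth was 0.0367 for Lef1 in inhibitor RNA 2, and 0.0415 for Nes and 0.0484 for Pax6 in inhibitor RNA 1. For T in inhibitor RNA 1 it was 0.0623. For Zic2 it was 0.263 in inhibitor RNA 1 and 8.08 in GFP RNA 2. The number of reads behind each value also depends on transcript length and is unknown.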
